A study of Homo sapiens with 37 samples.

Results

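WI-38 fibroblasts were exposed to doxorubicin in an initial experiment and in a later repeat, and the 2 responses were set against each other gene by gene. Members were the libraries that the labels name WI-38 Dox-, WI-38 Dox+, WI-38 Dox- Repeat and WI-38 Dox+ Repeat, with 2 replicates each, or 8 of the 37 libraries of the series. For every gene, the log2 fold change of Dox+ over Dox- was subtracted from that of Dox+ Repeat over Dox- Repeat, all 3 quantities being tested in 1 fit. A positive difference therefore marks a gene whose response was higher in the repeat. WI-38 is a diploid fibroblast strain from human fetal lung with a limited lifespan in culture. All cells were at population doubling level 25 and grew in DMEM with 10% fetal bovine serum, antibiotics and non-essential amino acids. Both doxorubicin groups received 2 µg/mL of the drug for 24 h, and both control groups are labelled as controls. The column headers of the repeat controls name DMSO, while those of the first controls name no vehicle. The labels leave out how long after exposure the cells were collected. They also do not say whether replicates were grown apart, so the p-values reflect the spread of these libraries alone, which may be technical. The responses share no library. For some comparisons a control was replaced by another WI-38 control at the same doubling level, n = 2 each: WI-38 IR- and WI-38 Proliferating Control for Dox- Repeat, and WI-38 EV for Dox-. IR- is labelled a control, Proliferating Control is labelled as proliferating cells, and EV cells received an empty vector at 10 MOI with puromycin at 1 µg/mL.

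Doxorubicin traps topoisomerase II on DNA and leaves double-strand breaks. In dividing fibroblasts such breaks activate p53, which raises the cyclin-dependent kinase inhibitor p21 (CDKN1A) and stops the cycle. Cells that stay arrested become senescent: they lose lamin B1, keep lysosomal beta-galactosidase high and secrete chemokines, interleukins and proteases, with a slower rise of interferon-stimulated genes fed by cytosolic DNA. Cholesterol and fatty acid synthesis is governed by the SREBP factors, which SCAP escorts from the endoplasmic reticulum when sterols are low and INSIG1 holds back when they are high.

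The promoters of 4 genes stand for the programs on which the experiments met or parted. Each sequence is the 250 bases before the annotated start in RefSeq on GRCh38.p14, read on the gene's own strand, with matches to the searched letters in capitals. HMGCS1 belongs to the cholesterol genes, which fell in the repeat, and its capitals mark the CCAAT box on either strand. IFI6 and ISG15 belong to the interferon-stimulated genes, of which 14 of 31 rose in the first experiment and 24 in the repeat. ISG15 itself was called in neither. The capitals of IFI6 and ISG15 mark the core of the interferon-stimulated response element, searched as GAAA, any 2 bases and GAAA. CCNB2 belongs to the mitotic genes, and its capitals mark TTTGAA, the core of the cell cycle homology region.
HMGCS1, chr5:43313413-43313662, minus strand, the first of 2 listed starts: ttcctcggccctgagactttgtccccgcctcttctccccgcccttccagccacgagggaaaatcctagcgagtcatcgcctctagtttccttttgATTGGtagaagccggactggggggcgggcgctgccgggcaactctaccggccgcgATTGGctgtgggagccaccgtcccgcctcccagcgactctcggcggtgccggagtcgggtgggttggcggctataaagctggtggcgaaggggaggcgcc
IFI6, chr1:27672193-27672442, minus strand: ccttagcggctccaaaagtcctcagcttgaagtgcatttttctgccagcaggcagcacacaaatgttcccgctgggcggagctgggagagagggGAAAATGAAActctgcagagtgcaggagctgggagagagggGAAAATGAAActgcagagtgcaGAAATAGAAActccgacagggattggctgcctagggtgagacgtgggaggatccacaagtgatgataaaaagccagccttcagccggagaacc
ISG15, chr1:1013247-1013496, plus strand: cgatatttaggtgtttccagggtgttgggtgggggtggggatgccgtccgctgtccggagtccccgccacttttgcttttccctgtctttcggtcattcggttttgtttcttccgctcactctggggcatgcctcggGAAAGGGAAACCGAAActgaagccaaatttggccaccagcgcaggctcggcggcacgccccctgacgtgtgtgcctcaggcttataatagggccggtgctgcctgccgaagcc
CCNB2, chr15:59104896-59105145, plus strand: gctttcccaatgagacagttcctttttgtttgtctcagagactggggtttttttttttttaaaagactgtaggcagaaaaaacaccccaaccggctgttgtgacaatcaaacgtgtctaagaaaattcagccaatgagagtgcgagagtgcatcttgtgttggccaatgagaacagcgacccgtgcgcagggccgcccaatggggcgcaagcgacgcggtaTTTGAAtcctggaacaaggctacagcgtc

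Motifs were searched on both strands of the promoter sequences, and a match is a description of letters, not a binding site. The searched sequences also ran past the start, beyond the stretches printed above. A gene counted as matched if the sequence of any of its listed starts held the letters. The interferon element stood in 17 of the 23 interferon-stimulated genes with a promoter in the table (73.9%), against 4.38% of all 27305 genes. Of the 25 mitotic genes matched, 17 held TTTGAA (68%), against 18.2% of all genes and 1 of 27 DNA replication genes. CCAAT stood in 16 of 20 cholesterol genes and 20 of 25 mitotic genes (80% each), against 39.7% of all genes. The sterol regulatory element, searched as TCACNCCAC, stood in 1 of the 20 cholesterol genes, SREBF2, and in 1.39% of all genes. CCAAT and TTTGAA were added after the promoters had been searched with the other letters.

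The libraries of the experiments differed in kind. In the first, 53.5% to 63.6% of counts fell on protein-coding genes, 0.123% to 0.341% on mitochondrial genes and 4.14% to 6.03% on small RNAs. In the repeat these ranges were 88.3% to 89.8%, 3.58% to 5.78% and 0.0313% to 0.0975%. Totals ran from 141476461 to 346257781 counts per library. A difference in level between the experiments therefore cannot be told apart from one in the kind of library. Levels of both are printed side by side for reading, and tests between experiments were run on the changes alone. The kind of library goes with the experiment throughout, so its part in a difference of the responses cannot be told apart either. The controls put in place of Dox- Repeat came from other experiments of the second WI-38 set, and EV from the first set. Levels are given as CPM, that is counts scaled to a common library total, on 1 scaling of the 8 libraries, in the order of replicates 1 and 2. Errors on log2 fold changes are standard errors, n = 2 per group, and adjusted p-values come from the edgeR quasi-likelihood test with Benjamini-Hochberg adjustment over all genes tested, called below 0.05.

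Of 32329 genes tested, 5738 changed in the first experiment (17.7%), 3068 of them higher (9.49%) and 2670 lower (8.26%). In the repeat 3715 changed (11.5%), 1773 higher (5.48%) and 1942 lower (6.01%). In both experiments 1625 genes changed with the same sign (5.03% of genes tested), which is 28.3% of the calls of the first and 43.7% of those of the repeat. They comprise 998 genes higher in both (3.09%) and 627 lower in both (1.94%), and 211 of the 1625 also differed in size between the experiments. The test of the difference called 1894 genes (5.86%), with the response higher in the repeat for 932 (2.88%) and lower for 962 (2.98%). Of these, 1101 had a response called in the first experiment only, 383 in the repeat only and 77 in neither, and 122 genes (0.377%) were called in both with opposite signs. Across genes, which are not independent replicates, the log2 fold changes had a Pearson correlation of 0.339. The count of 1894 rose when Dox- Repeat 2 was left out and fell whichever library of the first experiment was left out. The fit shared 1 dispersion between experiments whose biological coefficients of variation were 9.39% and 32.6% when fitted alone.

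**Figure D1:**
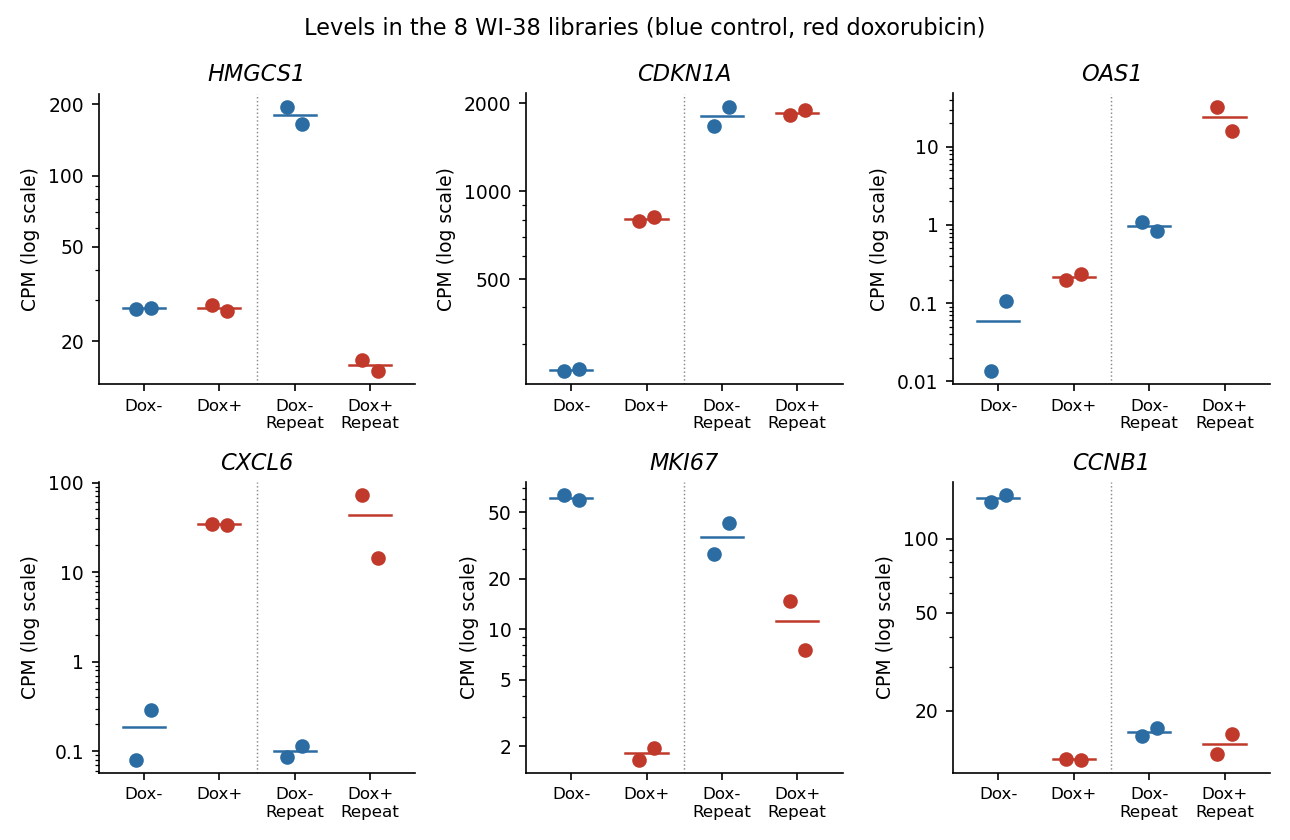
Level of 6 genes in the 8 libraries, in CPM on a log axis; each point is 1 library and each line the mean of 2. HMGCS1 fell in the repeat alone (195 and 165 to 16.7 and 15), CDKN1A rose in the first experiment alone, CXCL6 rose in both, and the log2 fold changes of MKI67 and CCNB1 were nearer 0 in the repeat.

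Genes of the inflammatory secretome rose in both experiments. Of 27 tested, 22 rose in the first, 21 in the repeat and 18 in both, none fell in either, and the median log2 fold changes were 3.44 and 3.01, against 0.04 and -0.02 over all genes. CXCL6, a chemokine that draws neutrophils through CXCR1 and CXCR2, stood at 0.081 and 0.29 CPM in Dox-, 34.7 and 33.8 in Dox+, 0.0866 and 0.114 in Dox- Repeat, and 72.1 and 14.2 in Dox+ Repeat. All treated libraries stood far above all controls, and the treated repeat libraries were far apart from each other. Its log2 fold changes were 7.52 ± 0.77 (adjusted p = 4.99e-05) and 8.74 ± 0.80 (adjusted p = 8.88e-05), and their difference, 1.22 ± 1.01, was not called (adjusted p = 0.547). CXCL1 and CXCL5, chemokines of the same family, rose by 8.2 and 6.43 in the first experiment and by 6.28 and 5.46 in the repeat on the log2 scale. CCL2, which attracts monocytes, had 19.1 and 20.3 CPM in Dox-, 168 and 181 in Dox+, 6.23 and 10.8 in Dox- Repeat, and 171 and 162 in Dox+ Repeat. The difference of CCL2 was not called, but 10 of 18 alternative fits called it higher in the repeat. Its values over the 18 ran from 0.72 to 1.60. VCAM1, an adhesion molecule for leukocytes, rose from 15.5 and 14.6 to 254 and 249 CPM in the first experiment and from 25.9 and 31.2 to 506 and 357 in the repeat. With IR- in place of Dox- Repeat, CXCL5 and VCAM1 were called higher in the difference, by 2.12 and 2.33, where their differences had been -0.97 and -0.14.

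IL6, the interleukin most often followed as a secretome gene, rose in both. Its levels were 2.64 and 2.74 CPM in Dox-, 25.1 and 25.6 in Dox+, 17.8 and 19.9 in Dox- Repeat, and 94.5 and 47.3 in Dox+ Repeat. The log2 fold changes were 3.23 ± 0.28 and 1.91 ± 0.26, and the difference of -1.33 ± 0.36 missed the threshold (adjusted p = 0.0564). IL1B, an inflammasome-processed interleukin, was called in the repeat only (5.00 ± 0.86, adjusted p = 0.00449), and not there by limma voom (adjusted p = 0.261). Library Dox- 2 held 2.78 CPM of IL1B against 0.203 in Dox- 1, and both Dox+ libraries stood at 3.33 and 3.19. The difference test did not call IL1B (adjusted p = 0.0608).

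Of the secretome genes, 5 had a smaller response in the repeat and none a larger one, whereas with IR- in place of Dox- Repeat 6 were called higher and 2 lower (median 1.21, against 6.87% and 8.99% of all genes). CXCL8, a neutrophil chemokine, rose from 4.82 and 10.3 to 331 and 373 CPM in the first experiment and from 1.16 and 1.16 to 10.6 and 8.52 in the repeat. It rose in both, with a difference of -2.50 ± 0.40 (adjusted p = 0.00332), which turned to 1.32 and was no longer called with IR- in place of Dox- Repeat. CXCL2 rose by 4.54 and 1.31, with a difference of -3.23 (adjusted p = 0.00562). LIF, a cytokine of the interleukin 6 family, and TNFAIP3, a brake on NF-kappaB, rose by 1.65 and 2.10 in the first experiment, with repeat values of -0.30 and 0.33 that were not called. With IR- the differences of LIF, TNFAIP3 and CXCL2 were no longer called, at -0.19, -0.13 and 0.96. IL32, the fifth, had values of 1.28 and -1.19, of which only the first was called. The number of secretome genes called in the difference went from 5 to 10 without Dox+ Repeat 1, 8 without Dox- Repeat 2 and down to 4 at the lowest, and the secretome genes called in the repeat from 21 to 14 without Dox- Repeat 1.

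**Figure D2:**
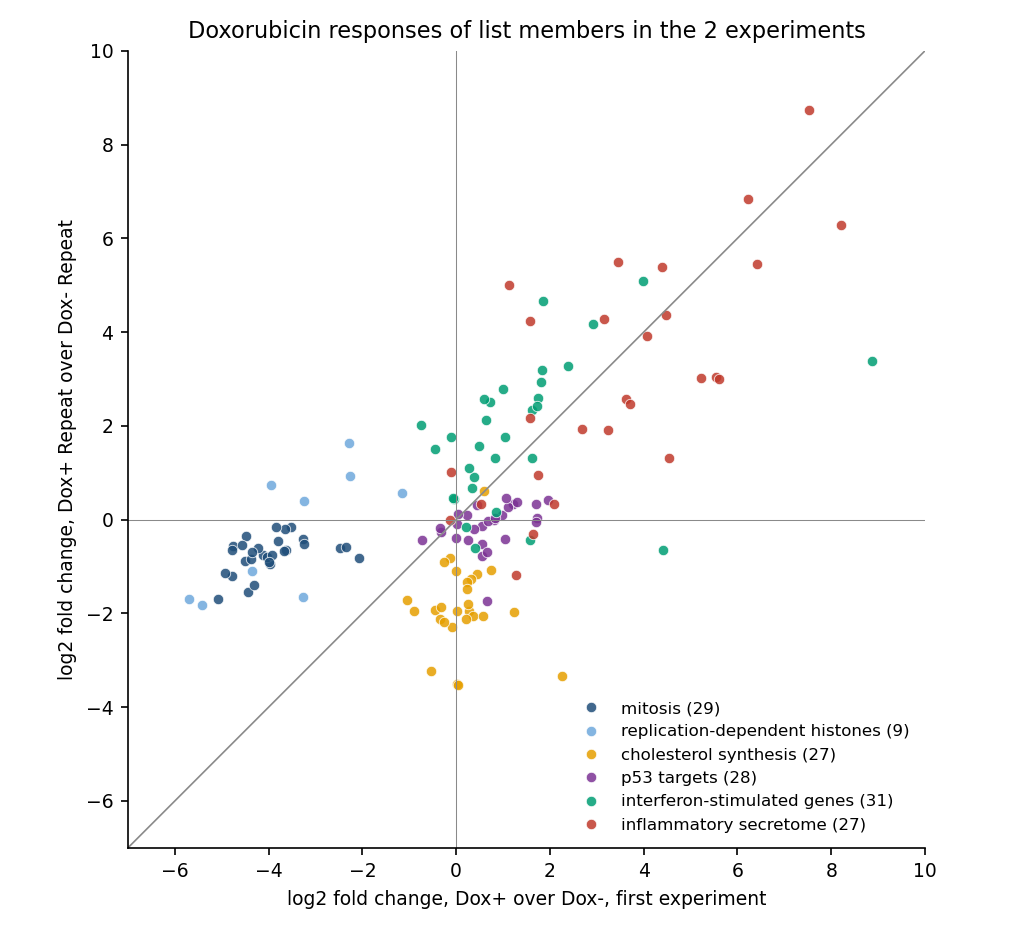
Log2 fold change in the repeat (y axis) against the first experiment (x axis) for the tested members of 6 lists; each point is 1 gene and the diagonal marks equal responses. Secretome genes lie along the diagonal, and mitotic genes lie far to the left and between -1.68 and -0.15 on the y axis. Histones lie left of 0 on both sides of 0 on the y axis. Cholesterol genes except SCAP lie below 0 on the y axis, and on the x axis they run from -1.04 to 2.26 (median 0.05).

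Outside the lists, the genes with the largest responses of equal sign were chosen by rule, so that their agreement is a description. C3, the central complement protein, stood at 0.365 and 0.507 CPM in Dox-, 141 and 143 in Dox+, 1.62 and 1.47 in Dox- Repeat, and 436 and 131 in Dox+ Repeat. ATP8B4, a phospholipid flippase subunit, rose from 1.54 and 1.41 to 59.3 and 53.8 CPM and from 1.30 and 1.62 to 47.9 and 50.0. Its responses of 5.26 ± 0.19 and 5.07 ± 0.18 differed by -0.19 ± 0.23, which turned to 1.81 ± 0.18 with IR- as control. VNN2, a pantetheinase, rose by 4.93 and 4.61, and TNFSF18, the ligand of the receptor GITR, by 4.54 and 4.43, its difference of -0.11 turning to 3.29 with IR-. HBG2, a fetal globin gene, rose by 5.58 and 6.77, but its exons overlap other genes on the same strand, so that its counts are uncertain. Among genes lower in both, XYLT1, which starts glycosaminoglycan chains on proteoglycans, went from 36.5 and 35.7 to 10.5 and 9.57 CPM and from 53.4 and 53.7 to 16.4 and 14. Its responses of -1.85 ± 0.15 and -1.82 ± 0.15 differed by 0.03 ± 0.20. RGS4, which shortens G-protein signals, fell by 3.05 and 2.17, FRMD5 by 2.38 and 2.58, and FAM180A by 2.04 and 2.28, the difference of FAM180A turning from -0.24 to 1.62 with IR-, against which its repeat response was no longer called. EZR, which links the membrane to actin, fell by 1.98 and 1.79 and overlaps its antisense gene EZR-AS1, which fell by 2.07 and 1.72. The sources used here do not state whether counting used strand, so reads of EZR and EZR-AS1 cannot be told apart. CARD10 and KHDRBS3 fell by 1.92 and 2.13 in the first experiment and both by 1.72 in the repeat.

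Cholesterol synthesis genes fell in the repeat, and most were not called in the first experiment. Of 27 tested, 25 fell and 1 rose in the repeat (median -1.95), against 3 that rose and 3 that fell in the first (median 0.05), and the difference was called, always lower in the repeat, for 23 (median -1.82). The median of the difference over all genes was -0.08. HMGCS1, the enzyme that makes HMG-CoA, stood at 27.4 and 27.7 CPM in Dox-, 28.6 and 26.8 in Dox+, 195 and 165 in Dox- Repeat, and 16.7 and 15 in Dox+ Repeat. The groups overlapped in the first experiment and lay far apart in the repeat. Its response was 0.01 ± 0.15 in the first experiment (adjusted p = 0.981) and -3.51 ± 0.16 in the repeat (adjusted p = 1.10e-06), a difference of -3.52 ± 0.21 (adjusted p = 5.94e-06). A transcript with no symbol, ENSG00000261604, overlaps HMGCS1 on the opposite strand and had a difference of -4.67, and without stated use of strand its counts cannot be told apart from those of HMGCS1.

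Members of each role in the pathway fell in the repeat. Of the regulators, INSIG1, the sterol-dependent anchor of SCAP, went from 31.1 and 28.9 to 21.1 and 20.6 CPM in the first experiment and from 138 and 138 to 15.5 and 13.8 in the repeat, falling in both with a difference of -2.71 (adjusted p = 2.05e-05). SREBF2, which encodes the factor that drives these genes, had a response of 0.45 in the first experiment, not called, and fell by 1.17 in the repeat. SCAP, the escort of SREBP, rose in both by 0.59 and 0.61. Of the mevalonate steps, the decarboxylase MVD had 141 and 52.6 CPM in Dox- Repeat and 8.17 and 8.67 in Dox+ Repeat, so that the repeat controls stood far apart. In the sterol steps, squalene synthase FDFT1 went from 741 and 932 to 224 and 208 CPM in the repeat and squalene epoxidase SQLE from 193 and 201 to 54.9 and 46.9. TM7SF2, a sterol reductase, and SC5D, a sterol desaturase, rose in the first experiment (1.24 and 0.75) and fell in the repeat (-1.96 and -1.07). ACAT2 and EBP fell in both, by 1.04 and 0.91 in the first experiment and by 1.72 and 1.95 in the repeat. The difference of EBP (-1.05) lost its call without any 1 library of the first experiment.

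**Figure D3:**
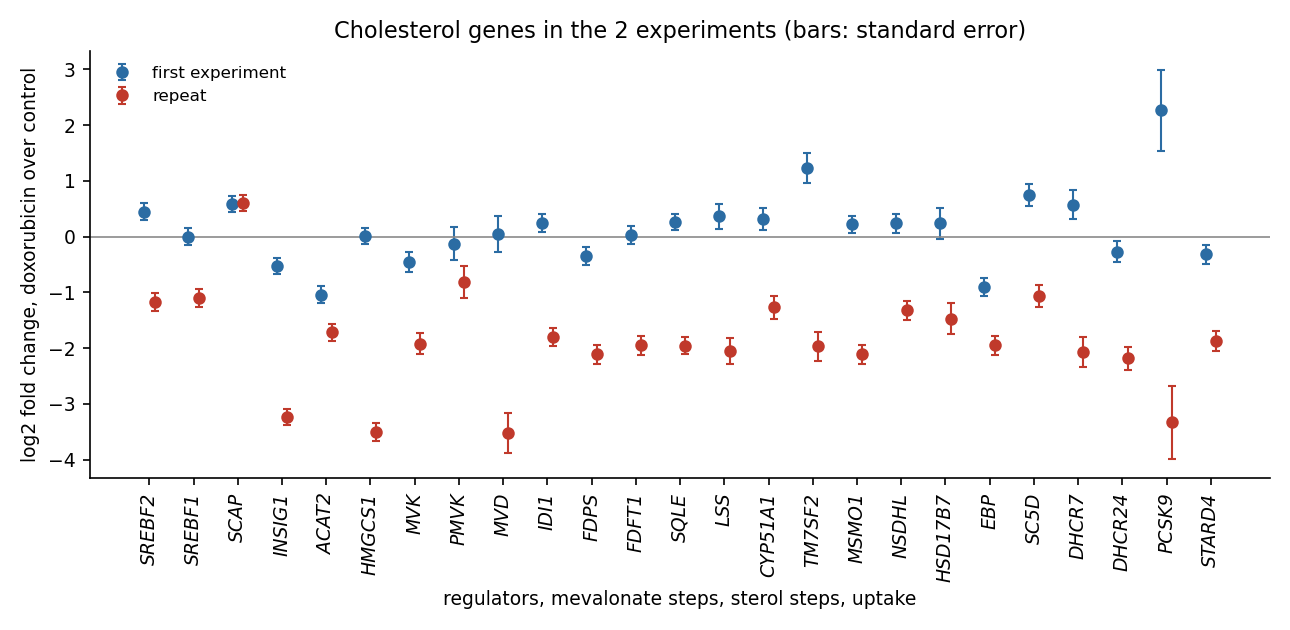
Log2 fold change of 25 of the 27 cholesterol genes in the first experiment (blue) and the repeat (red), ordered by role in the pathway, with standard errors as bars. All red points except SCAP lie below 0, while most blue points lie between -1 and 1.

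All 8 genes of fatty acid synthesis fell in the repeat (median -1.60), none fell in the first experiment, where 1 rose, and 7 were called in the difference. SCD, the desaturase that makes monounsaturated fatty acids, was at 83.3 and 76.2 CPM in Dox-, 77.1 and 72.9 in Dox+, 1788 and 2534 in Dox- Repeat, and 301 and 158 in Dox+ Repeat. FADS1 fell by 1.86 and FADS2, which it overlaps on the opposite strand, by 2.16 in the repeat, with first values of 0.59 and 0.17 that were not called. The difference of FADS2 was lost with EV in place of Dox-. FABP3, a fatty acid carrier outside these lists, had the lowest difference among abundant genes, -6.86 ± 0.42 (adjusted p = 5.94e-06). Its levels were 0.912 and 1.05 CPM in Dox-, 2.17 and 1.98 in Dox+, 132 and 95.1 in Dox- Repeat, and 2.74 and 1.40 in Dox+ Repeat.

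The lower cholesterol response was also called with other controls. Against IR-, 25 of 27 cholesterol genes were lower in Dox+ Repeat, with a median of -2.04, where 37.6% of all 32430 genes tested were called and 20.5% were lower. Against Proliferating Control, 25 of 27 were lower with a median of -1.90, where 10.2% of 30656 genes were lower. These comparisons reuse the Dox+ Repeat libraries and come from a fit that includes the replacing group. With IR- in place of Dox- Repeat the difference was called lower for 26 cholesterol genes (background 8.99%) and with Proliferating Control for 25 (background 6.13%). With EV in place of Dox-, it was called for 21 (background 9.57%). In the first experiment against EV, 6 of the 27 rose and 8 fell (median -0.19), where 19.2% and 12.5% of all genes did. Across 7 other settings, which kept all 8 libraries, 3 to 19 of the 27 were called in the first experiment. The summed level of the 27 genes was 4274 and 4850 CPM in Dox- Repeat, 5382 and 5329 in Proliferating Control, 4829 and 4996 in IR-, and 1300 and 1240 in Dox+ Repeat on the scaling of the second WI-38 set. Leaving out 1 library moved the count of 23 between 19 and 25, and that of the 6 genes called in the first experiment between 2 and 9.

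Mitotic genes showed the largest loss in the first experiment and a smaller one in the repeat. Of 29 tested, all fell in the first (median -4.03), 13 fell in the repeat (median -0.66), and all 29 were called in the difference, higher in the repeat (median 3.35). The repeat count of 13 was 9 without Dox+ Repeat 1 and 20 without Dox- Repeat 1, while all 29 fell in the first experiment whichever library was left out. MKI67, the Ki-67 antigen of cycling cells, went from 63.2 and 59.3 to 1.67 and 1.96 CPM in the first experiment and from 28.3 and 43.2 to 14.8 and 7.49 in the repeat. It fell in both, by 5.07 ± 0.34 and 1.68 ± 0.29, with a difference of 3.39 ± 0.41 (adjusted p = 0.000573). CCNB1, the cyclin that starts mitosis, named here after its values were seen, went from 141 and 149.8 to 12.7 and 12.7 CPM in the first experiment, while the repeat held 15.8 and 17.1 in controls and 13.3 and 16.2 after doxorubicin. The repeat groups of CCNB1 overlapped, and its repeat response was -0.16 ± 0.15 (adjusted p = 0.546). CDC20, which activates the anaphase-promoting complex, had 45.6 and 48.3 CPM in Dox- and 1.57 and 1.90 in Dox+, and it had 1.57 and 1.97 in Dox- Repeat and 1.10 and 1.31 in Dox+ Repeat. KIF2C, a kinesin that takes microtubules apart, fell in both, by 4.43 and 1.55, as did PRC1, which bundles the central spindle, by 4.11 and 0.76. TOP2A, the enzyme that doxorubicin poisons, went from 331 and 314 to 22.4 and 19 CPM and from 32.1 and 37.5 to 17.6 and 18.4. In bulk RNA, fewer cycling cells and less of these transcripts per cell cannot be told apart.

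DNA replication genes fell in the first experiment. Of 31 tested, 30 fell in the first experiment (median -2.45), 7 fell and 2 rose in the repeat (median -0.39), and 29 were called in the difference, all higher in the repeat. The 9 replication genes called in the repeat became 4 without Dox+ Repeat 2, 13 without Dox- Repeat 2 and 5 without any 1 library of the first experiment. MCM10, a helicase-loading factor, went from 24.6 and 23.4 to 0.878 and 0.881 CPM and from 2.69 and 2.00 to 1.22 and 0.789. The thymidine kinase TK1 fell by 4.14 and 0.99, and the helicase subunit MCM2 by 2.84 and 1.00. E2F1, which encodes the factor behind S-phase genes, fell by 2.72 in the first experiment and had a value of 0.55 in the repeat (adjusted p = 0.0503). ORC6, of the origin recognition complex, fell by 1.91 and then rose by 0.63. CCNE1, the cyclin of S-phase entry, was the exception of the first experiment at 0.03 and rose by 0.89 in the repeat.

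Mitotic RNA differed among the control groups of the second set. Summed over the 29 genes, the level was 2131 and 2034 CPM in Dox-, 152 and 144 in Dox+, 319 and 429 in Dox- Repeat, and 207 and 216 in Dox+ Repeat. In the second set alone, on its own scaling, Dox- Repeat had 320 and 437 CPM, Proliferating Control 514 and 500, and IR- 1810 and 1859. Dox- Repeat was below IR- for all 29 mitotic genes (median -2.57), where 9.51% of 33612 genes were called and 4.13% were lower, and above it for none. That comparison was added after the control levels had been seen. No gene of 33612 separated Dox- Repeat from Proliferating Control by edgeR, with 3369 at an unadjusted p below 0.05, while DESeq2 called 141. Both comparisons of controls, and the scaling of the second set, came from a fit of 12 libraries. It also held irradiated WI-38 IR+ cells and WI-38 Replicative Exhaustion cells at a higher doubling level, with a biological coefficient of variation of 38.1%. The 4 libraries of Dox- Repeat and Proliferating Control alone also gave 0 genes. MKI67 stood at 189 and 213 CPM in IR- and 46.5 and 38.0 in Proliferating Control, and CCNB1 at 96.5 and 100.3 in IR- and 17.2 and 19.2 in Proliferating Control.

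With IR- as the control of the repeat, all 29 mitotic genes were lower in Dox+ Repeat, with a median of -3.46, and 28 of 31 replication genes were lower, with a median of -1.27. The difference from the first experiment was then called higher for 14 mitotic genes and lower for 2 (median 0.73), where 6.87% and 8.99% of all genes were called, and higher for 26 of 31 replication genes and lower for 1 (median 0.99). The difference of MKI67 became 0.88 ± 0.34 and was no longer called (adjusted p = 0.107), and that of CCNB1 became 0.76 ± 0.16 (adjusted p = 0.00953). The differences of KIF2C and TK1 turned from 2.88 and 3.15 to -0.07 and -0.61, and that of CDC20 was no longer called. With Proliferating Control all 29 mitotic genes were called higher, as with Dox- Repeat, with a median of 3.12, where 8.26% of all genes were called higher. The mitotic sum of EV, 701 and 624 CPM, lay below the 1945 and 1851 of Dox- on the scaling of the first set. That scaling came from a fit of Dox-, Dox+, EV and WI-38 HRAS(G12v) cells, the last with oncogenic HRAS. With EV in place of Dox-, 20 mitotic genes were called higher with a median of 1.72, where 4.13% of all genes were. All 29 mitotic genes still fell in Dox+ against EV (median -2.31), where 31.7% of all genes were called, but the difference of TOP2A lost its call. Each replacement kept the treated libraries, so a control with another mitotic level shifts the difference by construction. The part of the control's growth state in the result was not tested.

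**Figure D4:**
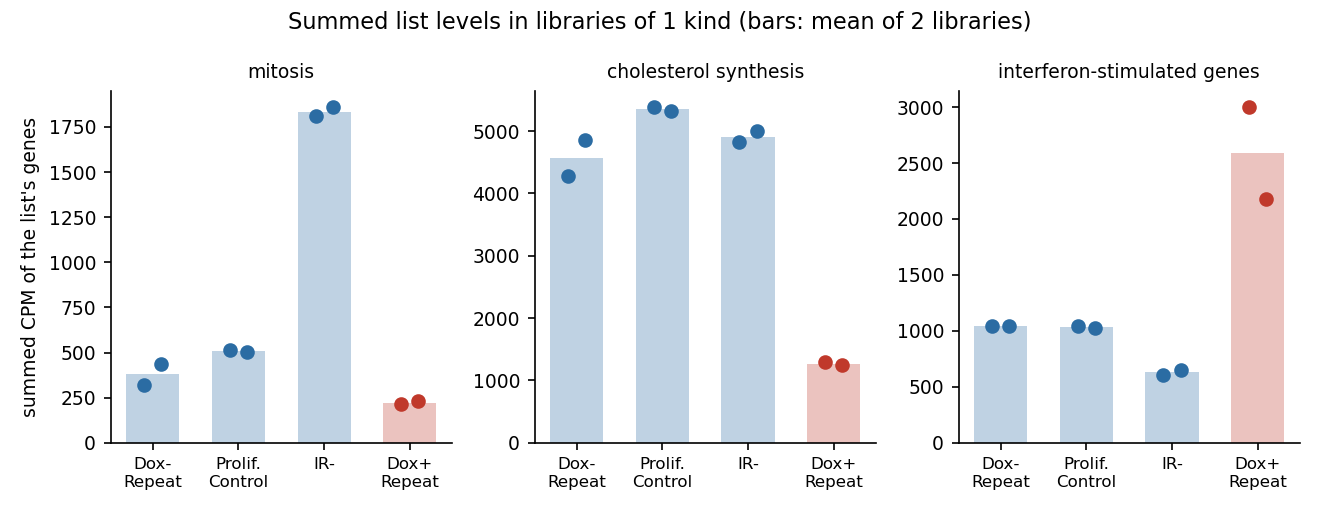
Summed CPM of the mitotic, cholesterol and interferon-stimulated lists in 4 groups of the second WI-38 set; points are single libraries and bars the mean of 2, starting at 0. The mitotic sum of IR- (1810 and 1859) is over 3 times that of the other controls, cholesterol sums are 4274 or more in all controls and 1300 or less in Dox+ Repeat, and interferon sums are lowest in IR-.

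Replication-dependent histone genes, whose transcripts are made in S phase, fell in the first experiment and split in the repeat. All 9 tested fell in the first (median -3.27). In the repeat 3 of the 4 core histones rose, 4 of the 5 linker histones fell, and all 9 were called higher in the difference. H4C8 went from 86.1 and 101 to 18.9 and 19.4 CPM in the first experiment and from 15.9 and 16 to 48.9 and 50.9 in the repeat. The treated repeat libraries were above their controls by 1.64 ± 0.15 (adjusted p = 8.01e-05) and the treated first libraries below theirs by 2.29 ± 0.15 on the log2 scale, a difference of 3.93 ± 0.21. The linker histone H1-3 fell in both, from 142 and 154 to 3.69 and 3.21 CPM and from 9.85 and 9.50 to 2.51 and 2.99. H1-5 fell by 5.70 and 1.69. Outside the list, the near-identical copies H3C14 and H3C15 had the highest difference of the abundant genes, 7.35 ± 0.28 each (adjusted p = 2.11e-07). H3C14 went from 362 and 416 to 8.97 and 8.08 CPM and then from 0.872 and 0.842 to 2.57 and 3.56, and reads of the copies cannot be told apart. H2AC11, H2BC18 and H2BC11 had differences of 6.10, 5.81 and 4.67, falling in the first experiment and rising in the repeat, while H2AC13 and H3C13 (4.94 and 5.34) fell in the first and were not called in the repeat. Transcripts of replication-dependent histones, core and linker alike, end without a poly(A) tail. The share of counts on small RNAs, given above, also differed between the experiments, and its part in the histone result was not tested. H4C8 stayed different with IR- as control (4.24 ± 0.18).

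Lamina and chromatin genes fell in both experiments, more in the first. Of 19 tested, 17 fell in the first (median -2.02), 10 fell in the repeat (median -0.59), 9 fell in both, and 13 were called higher in the difference. LMNB1, the lamin B1 gene whose loss marks senescence, went from 92.0 and 93.3 to 3.65 and 3.21 CPM and from 5.77 and 3.17 to 1.90 and 1.07. It fell by 4.76 ± 0.33 and 1.59 ± 0.29, with a difference of 3.17 ± 0.42 (adjusted p = 0.000936), and the repeat call was lost without Dox+ Repeat 2 (adjusted p = 0.0559). HMGB2, a chromatin-bending protein, went from 103 and 107 to 11.4 and 11.5 CPM and from 53.8 and 50.8 to 18.7 and 30.0, a difference of 2.09 ± 0.28 that was -0.02 with EV in place of Dox-. HMGA2, another architectural protein, fell by 1.51 and 1.04, and its difference of 0.47 ± 0.22 was not called (adjusted p = 0.262). HMGA1 fell by 2.31 and 1.10 and EZH2, the histone H3 methyltransferase, by 2.91 and 1.11, the difference of EZH2 being lost with EV and with IR-.

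The p53 targets rose in the first experiment only. Of 28 tested, 14 rose and 1 fell in the first (median 0.66), none rose and 3 fell in the repeat (median -0.04), none changed alike in both, and 10 were called lower in the difference (median -0.81). CDKN1A stood at 242 and 247 CPM in Dox-, 789 and 817 in Dox+, 1677 and 1950 in Dox- Repeat, and 1823 and 1898 in Dox+ Repeat. The repeat groups overlapped, and the response of 0.04 ± 0.16 (adjusted p = 0.918) stood against 1.72 ± 0.16 (adjusted p = 2.95e-05) in the first, a difference of -1.68 ± 0.23 (adjusted p = 0.00118). The rise in the first experiment was itself lost against EV (0.39, adjusted p = 0.192). In the other controls of the second set CDKN1A was at 1885 and 2088 CPM in IR- and 1627 and 1546 in Proliferating Control. With IR- the difference was -1.83 ± 0.15, whereas with EV, at 482 and 619 CPM, it was -0.35 ± 0.31 and no longer called (adjusted p = 0.486). MDM2, the ligase that degrades p53, went from 182 and 179 to 425 and 406 CPM and from 326 and 367 to 458 and 416. Its difference of -0.87 ± 0.21 (adjusted p = 0.036) was lost without any 1 library of the first experiment, and it became 0.18 with IR-. GDF15, a stress cytokine, rose from 29.8 and 30.2 to 115 and 117 CPM in the first experiment, while the repeat held 11.7 and 15.5 in controls and 22 and 14.4 after doxorubicin. Its difference of -1.53 ± 0.29 (adjusted p = 0.0095) was lost without Dox+ 2, Dox- 1 or Dox- 2 and became -0.54 with IR- or EV. TP53INP1, which links p53 to autophagy and death, rose by 1.71 in the first experiment and had a repeat value of -0.06, a difference of -1.77 that was lost with IR-. The number of p53 targets called in the difference went from 10 to 16 without Dox- Repeat 2 and to 5 or 6 without a library of the first experiment. The number called in the repeat went from 3 to 9 without Dox- Repeat 2, 6 without Dox+ Repeat 1, none without Dox+ Repeat 2 and 1 without any 1 library of the first experiment. Against IR-, 13 of 28 rose and 7 fell in Dox+ Repeat (median 0.20), against 17.1% and 20.5% of all genes.

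Of the other inhibitors of cyclin-dependent kinases, none rose in the repeat. CDKN2A, which encodes p16 and ARF, stood at 12.6 and 14.1 CPM in Dox-, 19.2 and 19.1 in Dox+, 24.4 and 14.8 in Dox- Repeat, and 8.58 and 8 in Dox+ Repeat. It was not called in the first experiment (0.52, adjusted p = 0.119), fell in the repeat by 1.24 ± 0.21 (adjusted p = 0.00456), and differed by -1.76 ± 0.30 (adjusted p = 0.00514). CDKN2B, which encodes p15, went from 7.25 and 6.28 to 13.6 and 14 CPM and from 49.9 and 39.0 to 26.8 and 17.3. It rose by 1.03 and fell by 1.01, a difference of -2.04 ± 0.30 (adjusted p = 0.00202). The fall was lost without Dox+ Repeat 2 or Dox- Repeat 1 and was 0.13 against IR-, and the rise was lost without Dox+ 2 or Dox- 2 and against EV. CDKN2C and CDKN3, of which CDKN3 encodes a phosphatase of CDK2, fell by 3.87 and 3.92 in the first experiment, with repeat values of -0.58 and -0.15 that were not called. Their differences were lost with IR-, and that of CDKN3 also with EV. Without 1 library the list's count of 5 called in the first experiment lay between 2 and 6.

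Lysosomal genes were called more often in the first experiment, by a count that fell whichever of its libraries was left out. Of 25 tested, 15 rose in the first (median 0.68), 1 rose and 2 fell in the repeat (median -0.09), and 10 were called lower in the difference. The repeat counts are near the background, as 5.48% of all genes rose and 6.01% fell there. The count of 15 became 4 without Dox+ 1 or Dox- 1, 5 without Dox+ 2 and 3 without Dox- 2, and the 3 of the repeat became 6 without Dox+ Repeat 1 or Dox- Repeat 2 and 1 without Dox+ Repeat 2. FUCA1, a fucosidase that p53 also induces, was the member that rose in both, from 0.446 and 0.684 to 6.24 and 5.51 CPM and from 5.22 and 3.87 to 10.5 and 9.67. NPC2, a carrier of lysosomal cholesterol, rose from 34.6 and 38.9 to 62.8 and 62.8 CPM and fell from 315 and 261 to 184 and 109, with a difference lost with IR-. GLB1, the source of senescence-associated beta-galactosidase, rose by 0.71 in the first experiment (adjusted p = 0.0301) and had a repeat value of 0.17, and its difference of -0.54 was not called (adjusted p = 0.312). The first call of GLB1 was lost without any 1 library of the first experiment. The difference count of 10 was 2 without any 1 of those libraries, 15 without Dox+ Repeat 1, 14 without Dox- Repeat 2 and 6 without Dox+ Repeat 2. Lysosomal genes stood higher in Dox- Repeat than in IR- for 14 of 25 (background 5.38%), and against IR- 17 rose and 2 fell in Dox+ Repeat (median 0.75), where 17.1% and 20.5% of all genes did.

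Of 16 genes associated with quiescence, 10 rose and 2 fell in the first experiment, where 9.49% and 8.26% of all genes did. In the repeat 3 rose and 1 fell, where 5.48% and 6.01% of all genes did. In the difference 6 were called lower, against 2.98% of all genes. PIK3IP1, an inhibitor of PI3-kinase, rose from 10.4 and 12.2 to 59.0 and 57.8 CPM in the first experiment, while the repeat held 83.3 and 103 in controls and 128 and 113 after doxorubicin; its difference was lost with EV. CCNG2, a cyclin of arrested cells, rose by 1.29 and fell by 0.53, and MXI1, a MYC antagonist, rose by 1.56 with a repeat value of -0.07. PDK4, which shuts pyruvate dehydrogenase, rose in both by 5.08 and 4.03, as did SESN3 by 2.24 and 1.09. Without 1 library the count of 6 in the difference lay between 3 and 8, the 12 called in the first experiment between 7 and 13, and the 4 of the repeat between 1 and 8.

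Interferon-stimulated genes rose in both experiments, and further members rose in the repeat. Of 31 tested, 14 rose in the first (median 0.84), 24 in the repeat (median 1.77) and 13 in both, with none lower in either. The count of 14 became 7 without Dox+ 1 or Dox- 1 and 11 without Dox+ 2 or Dox- 2, while that of the repeat stayed at 23 or 24. The difference was called higher for 5 and lower for 1. OAS1, which senses double-stranded RNA, stood at 0.0135 and 0.105 CPM in Dox-, 0.195 and 0.236 in Dox+, 1.08 and 0.839 in Dox- Repeat, and 32.6 and 16 in Dox+ Repeat. Treated libraries were above their controls in both experiments. The response of 1.85 ± 0.64 was not called in the first (adjusted p = 0.0723), that of 4.66 ± 0.42 was in the repeat (adjusted p = 8.88e-05), and the difference of 2.81 ± 0.83 missed the threshold (adjusted p = 0.0758). IFI6, a mitochondrial antiviral protein, went from 6.11 and 6.62 to 38.4 and 28.5 CPM and from 34.2 and 25.1 to 345 and 226, rising in both without a called difference (0.87 ± 0.33, adjusted p = 0.153). HERC6 rose by 1.76 and 2.59, and its difference of 0.83 was not called (adjusted p = 0.082). ISG15, whose promoter is shown above, was called in neither (0.84 and 0.15). RSAD2, the antiviral enzyme viperin, had no count in either Dox- library, 0.252 and 0.217 CPM in Dox+, 0.585 and 0.802 in Dox- Repeat, and 8.8 and 5.73 in Dox+ Repeat.

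The 5 genes with a larger response in the repeat were OAS3, IFITM1, XAF1, USP18 and IFI44. USP18, which removes ISG15 from proteins, had 8.35 and 9.29 CPM in Dox- and 6.99 and 5.94 in Dox+, then 7.12 and 7.20 in Dox- Repeat and 21.6 and 18.8 in Dox+ Repeat, a difference of 1.95 ± 0.23 (adjusted p = 0.000488). IFITM1, a membrane barrier to viral entry, and OAS3 and XAF1 differed by 1.89, 2.77 and 1.49, rising in the repeat with first responses that were not called. IFI44 rose in both, by 0.72 and 2.51, and its difference of 1.79 was lost with EV in place of Dox- (0.84, adjusted p = 0.0819). IFIT2, which binds viral RNA, was the exception: it rose from 2.36 and 3.24 to 9.46 and 7.31 CPM in the first experiment, while the repeat held 65.2 and 48.4 in controls and 52.4 and 32.1 after doxorubicin. Its difference of -2.01 turned to 1.07 with IR- (adjusted p = 0.0456). The count of interferon genes called in the difference, 6 in all, was 11 without Dox+ Repeat 2 and 9 without Dox- Repeat 2. Summed over the list, levels were 414 and 405 CPM in Dox-, 834 and 809 in Dox+, 1038 and 1024 in Dox- Repeat, and 2898 and 2051 in Dox+ Repeat. With IR- as control, whose sum of 607 and 651 CPM lay below the 1042 and 1041 of Dox- Repeat on the scaling of the second set, 27 of 31 rose (background 17.1%; median 3.31) and the difference was called higher for 23. With Proliferating Control, at 1041 and 1022 CPM, 26 of 30 rose (background 10.6%; median 2.12).

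**Figure D5:**
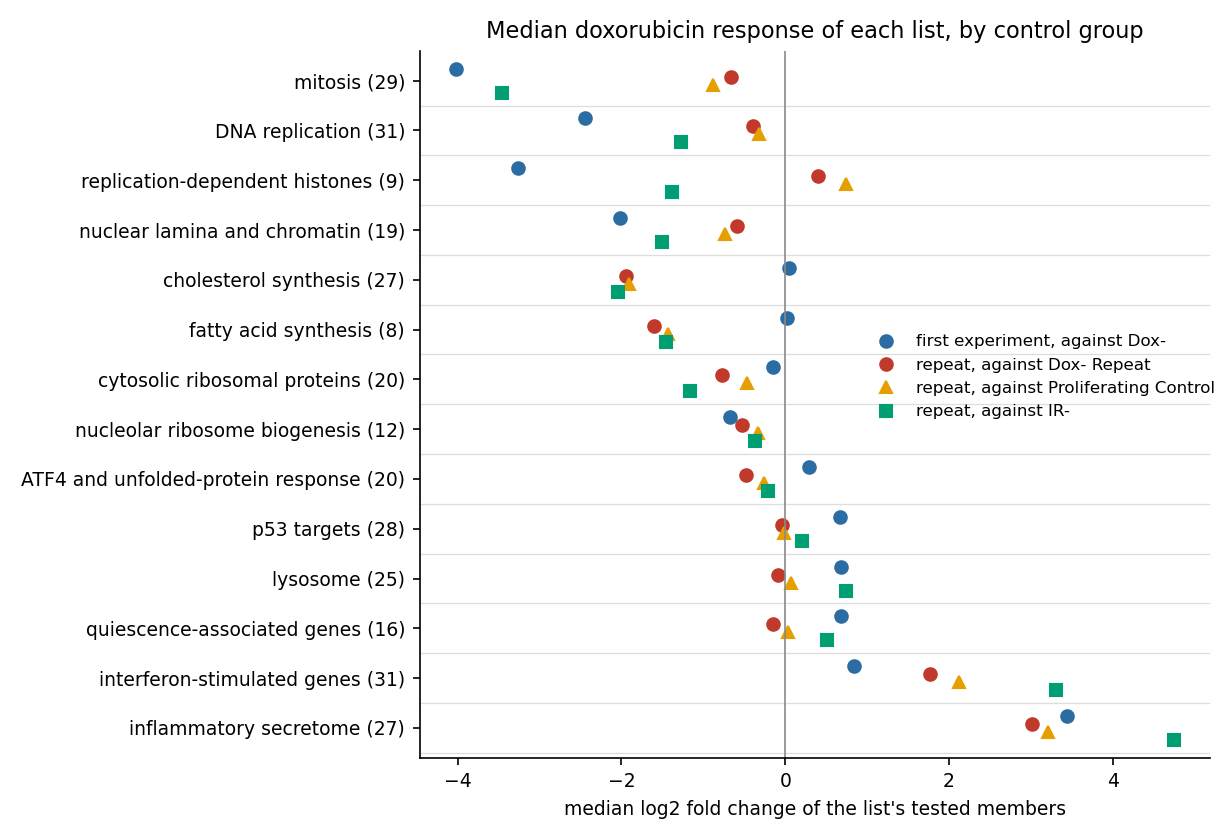
Median log2 fold change after doxorubicin of 14 lists, for the first experiment and for the repeat against each of 3 control groups; the number of genes tested stands in parentheses. Mitotic medians are -4.03 in the first experiment, -0.66 with Dox- Repeat and -3.46 with IR-, while cholesterol medians are near -2 with every repeat control and near 0 in the first experiment.

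Genes of the ATF4 and unfolded-protein response moved apart. Of 20 tested, 5 rose and none fell in the first experiment, 2 rose and 8 fell in the repeat, and 9 were called lower in the difference. All 8 that fell were among the 12 ATF4 targets. ASNS, which makes asparagine, had 16.7 and 17.5 CPM in Dox-, 23.4 and 24.2 in Dox+, 91.1 and 107 in Dox- Repeat, and 41.9 and 35.6 in Dox+ Repeat, a difference of -1.83 ± 0.22 (adjusted p = 0.000439). TRIB3, a pseudokinase induced by ATF4, fell by 1.99 in the repeat, with a first value of 0.41 that was not called. DDIT4, a brake on mTORC1, rose by 1.76 and fell by 0.76, while VLDLR, a lipoprotein receptor, rose by 2.32 and 0.96 with a difference lost with IR- and without Dox+ 1, Dox+ 2 or Dox- 2. Among chaperone genes, DNAJB9 rose by 1.65 in the first experiment, with a repeat value of 0.12. The antioxidant HMOX1 rose from 14.8 and 16.1 to 36.1 and 39.1 CPM and fell from 33.1 and 31.9 to 18 and 13.2, the 1 of 8 NRF2 targets called in the difference. Without 1 library the difference count of 9 lay between 6 and 12, the 5 called in the first experiment became 3 (without any 1 of its own libraries) to 11, and the 10 of the repeat lay between 6 and 12.

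Ribosome genes fell on different tiers. Of 12 nucleolar factors, 8 fell in the first experiment and 4 in the repeat, 2 in both, and none was called in the difference by edgeR. The count of 8 was 2 without any 1 library of the first experiment, and that of 4 was 9 without Dox- Repeat 2 and 2 without Dox+ Repeat 2 or Dox- Repeat 1. FBL, the rRNA methyltransferase, fell by 1.48 and 0.77, and NPM1, nucleophosmin, by 0.66 and 0.87. Of 20 cytosolic ribosomal proteins, none was called in the first experiment (median -0.14) and 16 fell in the repeat (median -0.77), yet none was called in the difference (median -0.65), and 12 were without Dox- Repeat 2. The count of 16 was 8 without Dox+ 1, 7 without Dox+ 2 and 9 without Dox- 2. RPL13 had 642 and 370.4 CPM in Dox- Repeat and 192 and 236 in Dox+ Repeat. Against IR- all 20 fell (median -1.16) and were called lower in the difference. None of the 13 mitochondrially encoded genes was called in any of the 3 tests, and 8 were called in the difference without Dox+ Repeat 1. Of 18 genes of glycolysis and hypoxia, 6 rose and 2 fell in the first experiment, where 9.49% and 8.26% of all genes did. In the repeat 2 rose and 2 fell, where 5.48% and 6.01% of all genes did. Without 1 library the 8 called in the first lay between 4 and 11 and the 4 of the repeat between 2 and 6. SLC2A1, the glucose transporter, rose by 1.00 and 0.95, whereas ALDOC, an aldolase, rose by 0.69 and fell by 1.43.

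Among proteases and their inhibitors, 6 of 14 rose in each experiment and 3 in both. With the 2 that fell, 8 were called in the first, a count that was 4 without any 1 of its libraries. MMP3, stromelysin, went from 11.4 and 10.7 to 93.8 and 105 CPM and from 4.55 and 3.42 to 55.7 and 67.7, and SERPINE2, a thrombin inhibitor, rose by 1.86 and 1.87. MMP10 turned its sign: it fell from 4.77 and 6.05 to 1.49 and 1.56 CPM and rose from 0.105 and 0.248 to 3.10 and 2.90, a difference of 5.90 ± 0.47 (adjusted p = 3.17e-05). With EV, at 0.257 and 0.156 CPM, in place of Dox-, the difference was 1.36 and not called (adjusted p = 0.115). Of 26 matrix genes, 5 rose and 3 fell in the first experiment and 6 rose in the repeat. The 3 that fell are near the background, as 8.26% of all genes fell there. The 8 called in the first were 2 or 3 without any 1 of its libraries, and the 6 of the repeat were 13 without Dox+ Repeat 1 and 12 without Dox- Repeat 2. COL1A2 and COL3A1, chains of the fibrillar collagens, rose in both, by 0.81 and 1.10 and by 0.96 and 1.69. ELN, elastin, went from 22.1 and 22.2 to 1.42 and 2.17 CPM in the first experiment and was near the bottom of the scale in the repeat, at 0.134 to 0.217. Of 12 contractile genes, whose repeat count of 7 lay between 4 and 9 without 1 library, 5 fell in the first experiment, 6 fell and 1 rose in the repeat and 3 fell in both: TAGLN by 1.02 and 1.01 (its difference of 0.01 was -1.09 with IR-), CNN1 by 1.17 and 0.70 and ACTG2 by 1.40 and 1.01. Of 12 targets of TGF-beta and YAP, SMAD7 and TGFB2 rose in both, by 0.68 and 1.04 and by 1.2 and 1.15. ANKRD1, a YAP target, fell by 0.84 and rose by 1.69, its difference being lost with EV. The 5 targets called in the first experiment were 1 without any 1 of its libraries. Of 16 immediate early genes, 2 rose and 2 fell in the first experiment and 1 rose and 1 fell in the repeat. These counts are near the background: over all genes, 9.49% rose and 8.26% fell in the first experiment and 5.48% and 6.01% in the repeat. In the difference JUND was lower (-2.03, lost without Dox- 2) and FOSL1 higher (1.54, lost with IR-).

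Some genes outside the lists stood at the ends of the difference. RGS2, a brake on G-protein signals, went from 7.91 and 7.92 to 114 and 106 CPM and from 60.6 and 58.8 to 105 and 130.1, a difference of -2.82 ± 0.22 (adjusted p = 2.55e-05). With IR-, at 8.88 and 8.04 CPM, its difference was -0.02 ± 0.17. VNN3P and C15orf48 likewise lost their differences of -4.27 and -3.58 with IR-, at -0.80 and -0.47. ASS1, of arginine synthesis, rose by 1.94 in the first experiment, with a repeat value of -0.34, and QPRT, of NAD synthesis, rose by 1.56 and fell by 0.69. TNNT2, cardiac troponin T, had a difference of -3.66 that was lost without Dox+ 1 or Dox- 1 and with EV in place of Dox-. LRRN4CL turned its sign, from 4.47 and 4.46 to 15.5 and 15.7 CPM and from 5.41 and 2.69 to 1.51 and 0.943. LYPD1 and GPR39, which overlap on opposite strands, both fell in the first experiment (-1.60 and -1.56) and rose in the repeat (1.49 and 1.44). Reads of LYPD1 and GPR39 cannot be told apart, and with IR- neither kept a called difference.

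Lung fibroblast markers summed to 5837 to 10444 CPM over the 8 libraries, with none of the 15 at 0 in any. Of them, 6 rose and 2 fell in the first experiment and 3 rose and 2 fell in the repeat. The 8 called in the first were as few as 2 and the 5 of the repeat as many as 11 without 1 library. Beside these and the marker counts below, 9.49% of all genes rose and 8.26% fell in the first experiment. In the repeat these shares were 5.48% and 6.01%. Endothelial markers summed to 94.5 to 294 CPM, almost all from TEK, which rose in both experiments by 1.31 and 1.33. Of the 8, 1 rose and 3 fell in the first experiment, and 1 rose and 1 fell in the repeat. Dox- stood above EV for 7 of the 8 and below it for 0 (median 3.14), where 21.9% of 29380 genes were higher. That comparison came from the fit of the first set, which also held the HRAS(G12v) libraries. Against EV, 2 of 7 tested rose in Dox+ and 0 fell. CDH5, the defining endothelial cadherin, stood at 1.14 and 2.31 CPM in Dox-, 0.171 and 0.102 in Dox+ and 0.0251 or less in the repeat. Epithelial markers summed to 8.92 to 49.4 CPM, from keratins KRT8, KRT18 and KRT19, while EPCAM stayed at 0.541 or below. Of the 6 epithelial markers tested, 2 fell in the first experiment and 3 in the repeat. Leukocyte markers summed to 9.75 to 39.2 CPM, mostly CD68, with PTPRC at 0.666 or below and CD14 at 1.12 or below. Of the 6 leukocyte markers tested, 3 rose in the first experiment and 1 in the repeat, and the part of these other cell types in the results above was not tested. Neural markers summed to 22.2 to 170 CPM, mostly TUBB3, with none of the 4 called in the first experiment and 1 lower in the repeat.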

How the data were processed

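The deposited values are read counts per gene, whole numbers that the authors left unnormalised. Per the submitters' processing notes, bcl2fastq, cutadapt, STAR 2.4, featureCounts and hg19 were used; the sources used here do not state settings, gene annotation or use of strand. Per the labels' protocols, total RNA was depleted of rRNA and amplified to cDNA; a paired-end run is stated for the first experiment only. Names and overlaps came from GENCODE 29 for 52338 of 57773 genes, and promoters from RefSeq.

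Genes were kept by edgeR's filterByExpr, scaled by TMM and tested with edgeR 4.0.16 (quasi-likelihood, R 4.3.3) in 1 fit of the 8 libraries with a mean per group, adjusted by Benjamini-Hochberg. limma 3.58.1 and DESeq2 1.42.0 served alternatives, which also left out each library, replaced a control group, dropped the filter, kept protein-coding genes or added a replicate block. On simulated data for the difference, over 32329 genes, 19% of 2-fold and 96% of 4-fold changes were recovered (100 genes each), and 7.26% of calls were unchanged genes. Unlike the data, the simulation gave each gene 1 dispersion in both experiments and put no response outside the changed genes. Its rates therefore do not carry over to the differences called here.

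Members and lists (472 matched genes, with 22 names not analysed here) were chosen with earlier results of these data known. Genes were named by rule: the markers, 6 per side by adjusted p and by size of the difference with an average log2 CPM of at least 1, 8 per direction called in both, up to 8 of opposite sign, and 3 per list by each measure. CCNB1, H1-5, the genes overlapping named ones and the other list members given with values were chosen after their values were seen. The labels do not say whether replicate numbers pair the libraries, and the main fit used no pairing. Values of some list members are not reported here.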

Additional observations from a re-analysis of the deposited data

Results flagged for a closer look

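The test of the difference between the 2 doxorubicin responses called 932 genes higher and 962 lower in the repeat, and 122 genes were called in both experiments with opposite signs. Values below are the log2 fold change in the repeat minus that in the first experiment, each called by the edgeR quasi-likelihood test of that difference after Benjamini-Hochberg adjustment.

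Of the fixed markers, the response was lower in the repeat for HMGCS1 (-3.52), CDKN1A (-1.68), CDKN2A (-1.76), CDKN2B (-2.04), CXCL8 (-2.50), GDF15 (-1.53) and MDM2 (-0.87). It was higher for LMNB1 (3.17), HMGB2 (2.09) and MKI67 (3.39), all of which fell in both experiments. Genes whose response turned its sign were H3C14 and H3C15 (7.35 each, near-identical copies whose counts are uncertain), H4C8 (3.93), H2BC18 (5.81), MMP10 (5.90), LRRN4CL (-3.53), LYPD1 (3.09) and GPR39 (3.00), of which LYPD1 and GPR39 overlap. With groups of 2 libraries, no single library could be assessed as standing apart from its group.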

How the results depend on the processing

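The first response called 5738 genes, and 10374 with EV in place of Dox-, 9008 with Proliferating Control in place of Dox- Repeat, 13536 by limma voom with quality weights, 12696 fitted alone and 2647 to 7825 without 1 library. The repeat called 3715, and 12191 with IR-, 6376 with Proliferating Control, 1646 by limma voom, 1299 alone and 2185 to 6947 without 1 library. The difference called 1894, and 3217 by DESeq2, 4480 with EV, 5143 with IR-, 4412 with Proliferating Control, 3483 with no filter, and 818 (without Dox+ 2) to 4676 (without Dox- Repeat 2). Genes called alike in both numbered 1625, and 5015 with IR-, 3164 with Proliferating Control and 788 to 2727 without 1 library. Dox- Repeat against Proliferating Control gave 0 genes by edgeR, 141 by DESeq2, 418 with no filter and 0 to 473 without 1 library. Removing a library leaves fewer samples and a lone one is assumed to vary like the rest; otherwise the cause was not tested. The fit shares 1 dispersion (biological coefficient of variation 26.0%) between experiments that had 9.39% and 32.6% when fitted alone.

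Same-numbered libraries did not deviate together (correlations -0.0199 and -0.0244). These correlations weigh all genes tested alike, so they cannot exclude a shared culture or day. With a replicate block the counts were 5006, 2792, 1376, 1317 and 0 in the order above.

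With IR- the repeat response of CDKN2B turned to 0.1341, and the difference turned for CXCL8 (1.3240), MDM2 (0.1845), CXCL5 (2.1244), ATP8B4 (1.8090), TNFSF18 (3.2856), FAM180A (1.6234), TK1 (-0.6101), KIF2C (-0.0687), H1-4 (-0.0002), VCAM1 (2.3282), BGN (-0.8200), MYOCD (-0.0046), TAGLN (-1.0900), AXL (-0.6807), ASAH1 (0.4108), FGF10 (1.4034) and PDPN (0.0596). With EV it turned for HMGB2 (-0.0248), MMP1 (-1.3785) and VWF (-1.9502). The cause was not tested. Of all values of single genes under alternatives, 3284 kept direction and call, 151 lost the call, 123 gained it, 89 moved and these 21 reversed. Of the counts of members called (29 lists in 3 tests), 41 moved by over 1.5 times with IR-, 35 with Proliferating Control, 34 with EV and 33 by limma voom.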
